A study of Saccharomyces cerevisiae with 18 samples.

Results

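The RNA of yeast carrying *spn1* 141-305, an allele of *SPN1* that lacks both terminal tails of the protein, was compared with the RNA of yeast carrying *spn1* K192N, an allele with 1 changed residue in the central core. The comparison used 6 of the 9 RNA-seq libraries, 3 of each mutant, chosen by the genotype named in their labels, out of 18 samples in all. The study asked how Spn1 shapes chromatin and transcription, and its other 9 samples are nuclease digests of chromatin that were not analysed here. The 3 wild-type RNA libraries stand beside the mutants as a reference.

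The strains were MATa budding yeast of the BY4741 background (his3, leu2, met15 and ura3 deleted), as the genotype labels and the paper give it. The cell line labels of the 9 RNA libraries instead run from BY4741 up to BY4749, a different name for each library. In both mutants the chromosomal *SPN1* had been replaced by *LEU2*, and the allele, with a myc tag at its amino terminus, was carried on a *HIS3* plasmid under the *SPN1* promoter and terminator. The paper describes the wild-type strain in the same way, with wild-type *SPN1* on the plasmid, whereas its label gives only the parental genotype. Each allele was the sole source of Spn1. Cells grew to mid-exponential phase in rich glucose medium in triplicate cultures, with no added treatment, and cells of the fission yeast *S. pombe* were added to each sample as a spike-in. Each genotype was 1 strain.

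Spn1 is an essential and conserved histone chaperone that travels with elongating RNA polymerase II. Its folded core binds the elongation factor Spt6, and K192N is known to weaken Spn1 recruitment. Its flexible tails carry the contacts with histones and DNA, which the core alone lacks. The point mutant thus keeps the tails on a changed core, and the truncation keeps a normal core without tails.

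The parts of *SPN1* that the alleles change are shown first, from the R64 genome, with *SPN1* (YPR133C) on the minus strand of chromosome XVI between 795978 and 797210. The reading frame holds 410 codons, of which *spn1* 141-305 keeps 165, or 40.2%. It lacks 140 codons before the core and 105 after it. The windows are wild-type sequence, with the codon changed in K192N in capitals in the first and the kept codons in capitals in the others.
codons 187 to 197, chrXVI:796620-796652: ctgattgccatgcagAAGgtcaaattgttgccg
codons 138 to 144, chrXVI:796779-796799: ccaaaggttAGAAGAACGAGG
codons 302 to 308, chrXVI:796287-796307: GATAAGAGAATAatgcaatta
*SPN1* mRNA read 13.62, 12.55 and 12.28 in the K192N libraries and 11.06, 11.07 and 11.79 in the 141-305 libraries, and the groups did not overlap. The values are rlog values, a log2 scale on which the authors' transformation shrinks differences between libraries. *SPN1* fell by 1.51 on this scale (standard error 0.24, limma adjusted p = 0.00053), the largest fall of all tested genes. *HIS3*, the marker of the plasmid, read 14.89, 13.71 and 13.41 against 12.98, 13.02 and 13.73, and it moved with *SPN1* from library to library. Within a library, *SPN1* minus *HIS3* was −1.19 ± 0.07 (SD, n = 3) in K192N, −1.94 ± 0.01 in 141-305 and −1.31 ± 0.05 in wild-type. The part of the shorter reading frame in this difference was not tested.

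The matrix lists 6577 genes, of which the 5954 whose mean over the libraries reached log2(10) were tested. As deposited, 76 genes were lower and 37 were higher in 141-305 than in K192N at an adjusted p below 0.05, which is 1.28% and 0.621% of the tested genes and 1.9% in both directions together. The median difference over all tested genes was −0.02, and 63.4% of genes lay below 0. Of the called genes, 76 of 76 lower and 36 of 37 higher had libraries that did not overlap between the mutants, beside 12% and 4.55% of all tested genes. Differences were small, with 18 called genes beyond 0.5 in size. In wild-type and mutants alike, the MATa receptor gene *STE2* stood at 14.40 to 14.66 and the MATalpha receptor gene *STE3* at 6.52 to 6.75. Other mating type genes did not all follow this order. The MATalpha gene *SAG1* read 9.78 to 10.01, above the MATa genes *AGA2* (up to 7.86) and *ASG7* (up to 6.85). The MATa gene *BAR1* read 12.04 to 12.38, and *STE6*, also MATa, had a median of 12.29 over the libraries. The MATalpha genes *MF(ALPHA)1* and *MF(ALPHA)2* read up to 3.18 and 5.34. The MATa pheromone genes *MFA1* and *MFA2* were listed at 0 in all 9 libraries, as were *URA3* and *MET17* (also called MET15), which the strain lacks. Read depth is unknown, because the values are not counts.

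Libraries of 1 mutant were not level with each other. The median gene deviated from its mean over all libraries by 0.06, −0.05 and −0.06 in the K192N libraries and by −0.05, −0.04 and −0.03 in those of 141-305, so that K192N replicate 1 stood apart from the other 5. The mutants differed in this level by −0.02 (exact permutation test, two-sided, p = 0.9), and by 0.01 without K192N replicate 1. With 3 libraries against 3, the smallest p such a test can give is 0.1. Subtracting this median from each library, called centring here, lowered the median SD within K192N from 0.09 to 0.07 and left that within 141-305 at 0.05. After centring, 142 genes were lower and 111 higher (2.38% and 1.86%, or 4.25% together), with 69 lower and 37 higher genes called both ways. Libraries did not overlap after centring for 10.6% of all tested genes on the lower side and 9.17% on the higher side. A further 7 lower genes were called only as deposited, and 73 lower and 74 higher genes only after centring. Leaving out K192N replicate 1 gave 72 lower and 116 higher genes as deposited, and 114 and 143 after centring. The genotype accounted for 32.5% of the variance among the 6 libraries as deposited and 39.6% after centring (exact permutation test, one-sided, p = 0.1 for both, the smallest it can give). In the 9 fits that each left out 1 library, 22 of the 76 lower and 16 of the 37 higher genes called as deposited kept their call in all. A robust prior gave 77 lower and 34 higher genes as deposited, of which 63 and 31 were the same genes. Calls lost under it included those of *SPN1* (adjusted p = 0.25), *YGP1* (0.13), *PHO89* (0.25), *PHO5* (0.39), *HXT4* (0.051), *ACC1* (0.22), *CLN3* (0.12), *SED1* (0.10), *TIP1* (0.12) and *PIR3* (0.32). The 3 iron genes described below were lost as well. After centring the robust prior also ended the calls of *PHO84* (adjusted p = 0.062), *TPO3* (0.060), *CHA1* (0.053), *CHS2* (0.062) and *FAS1* (0.20). With a prior variance that did not follow the expression level, limma called 13 lower and 6 higher genes as deposited. *SPN1* was then not called (adjusted p = 0.11), nor was any gene of the phosphate transport, polyphosphate, iron, daughter cell and *CLB2* lists described below. After centring the same setting called 142 of the 142 lower and 109 of the 111 higher genes, with 2 more lower genes and 1 more higher gene.

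**Figure D1:**
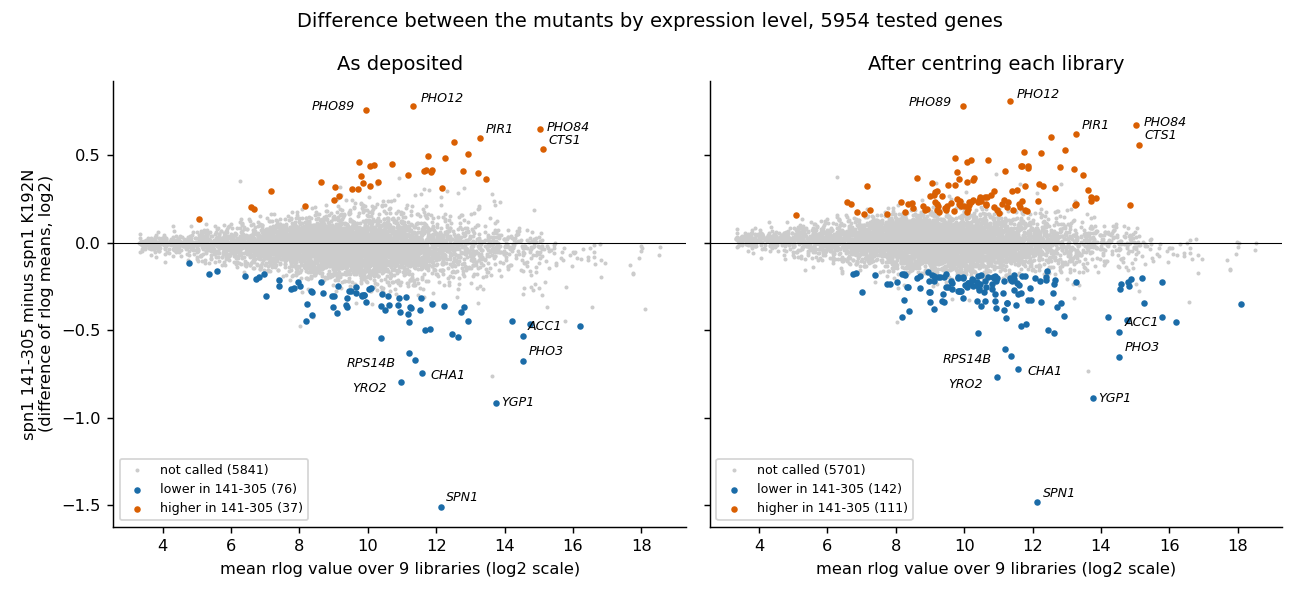
Difference between the mutants (spn1 141-305 minus spn1 K192N, rlog means, log2, vertical axis) against the mean rlog value over 9 libraries (horizontal axis), for 5954 tested genes as deposited (left) and after centring (right). Blue points were lower and orange points higher in 141-305, 76 and 37 on the left and 142 and 111 on the right, and SPN1 is the lowest point in both.

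Genes of phosphate uptake were among the largest rises in 141-305. Yeast meets low phosphate through the PHO pathway, in which the cyclin Pho80 with its kinase Pho85 holds the activator Pho4 out of the nucleus until the inhibitor Pho81 blocks the kinase. Pho4 then switches on high-affinity transporters, secreted acid phosphatases and the VTC complex, which stores phosphate as polyphosphate in the vacuole. Of 10 transport genes 2 were higher and 0 lower, of 8 phosphatase genes 4 were higher and 1 lower, and of 18 signalling and polyphosphate genes 3 were higher and 0 lower. Calls over all tested genes came to 0.621% higher and 1.28% lower. The list medians were 0.04, 0.14 and 0.06, beside −0.02 over all tested genes. The transport median rested on single libraries, at 0.08 without K192N replicate 1, −0.01 without K192N replicate 3 and 0.00 without 141-305 replicate 3, while 2 or 3 transport genes stayed higher. The polyphosphate median was 0.11 without K192N replicate 1 and 0.04 without K192N replicate 3. These lists were among patterns already known from these data when the comparison was chosen.

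*PHO84*, the main high-affinity phosphate transporter, read 14.83, 14.30 and 14.09 in K192N and 15.00, 15.04 and 15.12 in 141-305. *PHO89*, which takes up phosphate together with sodium, read 9.22, 8.75 and 8.54 against 9.47, 9.56 and 9.75. All 3 libraries of 141-305 lay above all 3 of K192N in both. The difference was 0.65 for *PHO84* (standard error 0.12, limma adjusted p = 0.0029) and 0.76 for *PHO89* (0.13, adjusted p = 0.0018). Wild-type stood above both mutants, at 15.54 to 15.68 for *PHO84* and at 11.00 to 11.71 for *PHO89*. The distance from wild-type was −1.23 in K192N and −0.58 in 141-305 for *PHO84*, and −2.59 and −1.83 for *PHO89*. The low-affinity transporter gene *PHO87* went the other way, at −0.23 as deposited (adjusted p = 0.16) and −0.20 after centring (adjusted p = 0.031). *SPL2*, a small regulator that lowers low-affinity uptake, differed by 0.16 (adjusted p = 0.15) and was called higher after centring, by 0.19 (adjusted p = 0.032). The other low-affinity transporters, *PHO90* and *PHO91*, both differed by −0.08 and were not called.

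Among the phosphatases, *PHO12* had the largest rise of all tested genes. It encodes a secreted acid phosphatase and read 10.97, 10.79 and 10.51 in K192N, 11.57, 11.54 and 11.52 in 141-305, and 11.66, 11.85 and 11.54 in wild-type. The difference between the mutants was 0.78 (standard error 0.09, limma adjusted p = 8.6e-06), and 141-305 was 0.15 below wild-type (adjusted p = 0.26). *PHO11*, its near-identical copy, differed by 0.34 (adjusted p = 0.0081), and reads of the pair cannot be told apart where the copies match. *PHO8*, the vacuolar alkaline phosphatase, read 11.59, 11.25 and 11.18 against 11.76, 11.77 and 11.72, higher by 0.41 (adjusted p = 0.0089). *PHO5*, the main repressible acid phosphatase, read 12.36, 11.75 and 11.65 against 12.40, 12.35 and 12.73, so that K192N replicate 1 lay within the 141-305 range. It differed by 0.58 (adjusted p = 0.017), and the call was lost without wild-type replicate 1, K192N replicate 2 or 3, or 141-305 replicate 3 (adjusted p = 0.076, 0.073, 0.065 and 0.078). *PHO3*, the neighbour of *PHO5* on chromosome II and a close copy of it, is repressed by thiamine rather than by phosphate. It read 15.07, 14.81 and 14.76 in K192N and 14.13, 14.14 and 14.33 in 141-305, a fall of 0.68 (standard error 0.10, adjusted p = 0.00016). Wild-type lay between, at 14.38 to 14.67. How far reads were shared between *PHO3* and *PHO5* was not tested.

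*VTC1*, *VTC3* and *VTC4*, which encode subunits of the polyphosphate polymerase complex, rose. *VTC3* read 12.04, 11.75 and 11.56 in K192N and 12.28, 12.23 and 12.30 in 141-305 (0.49, standard error 0.09, limma adjusted p = 0.0046). *VTC1* differed by 0.42 (adjusted p = 0.0081) and *VTC4*, the catalytic subunit, by 0.41 (adjusted p = 0.023), and neither overlapped between the mutants. *VTC2* differed by 0.16 (adjusted p = 0.41) and was called higher only after centring. *VTC1* lost its call without 141-305 replicate 3 (adjusted p = 0.052), and *VTC4* lost it in 5 of the 9 fits that left out 1 library, at an adjusted p of up to 0.12 without K192N replicate 3. *PPN2*, a vacuolar polyphosphatase outside the lists, read 10.57, 10.29 and 10.23 against 10.76, 10.74 and 10.93 (0.45, adjusted p = 0.0033). The inhibitor gene *PHO81* differed by 0.24 (adjusted p = 0.20) and was called after centring (0.26, adjusted p = 0.030). *PHO4*, *PHO2*, *PHO80* and *PHO85*, which encode the activator, its partner, the cyclin and the kinase, differed by 0.13, 0.05, −0.08 and 0.02 and were called in neither fit.

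Pho4 binds the core CACGTG strongly and CACGTT less so. One site upstream of each of 6 genes is printed to show the shared core, in capitals, with 8 bases on each side, read on the strand of the gene (R64).
PHO84, chrXIII:26223-26244: aatagttcCACGTGgacgtgtt
PHO89, chrII:798832-798853: caatgcagCACGTGggagacaa
PHO5, chrII:431191-431212: ggcactcaCACGTGggactagc
PHO12, chrVIII:551808-551829: ggcgttcaCACGTGggtttaaa
PHO11, chrI:225169-225190: ggcgttcaCACGTGggtttaaa
VTC3, chrXVI:517350-517371: cgagggccCACGTGgcttaata
The windows of *PHO11* and *PHO12* have the same letters. In the 500 bases before the start codon, CACGTG or CACGTT on either strand was found for 16 of 35 annotated genes called higher as deposited (45.7%), for 13 of 75 called lower (17.3%) and for 21.4% of 5564 tested protein-coding genes. CACGTG alone was found for 8 of the 35 (22.9%), beside 6.29% of all. A match is a description of the letters and not a measured site.

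**Figure D2:**
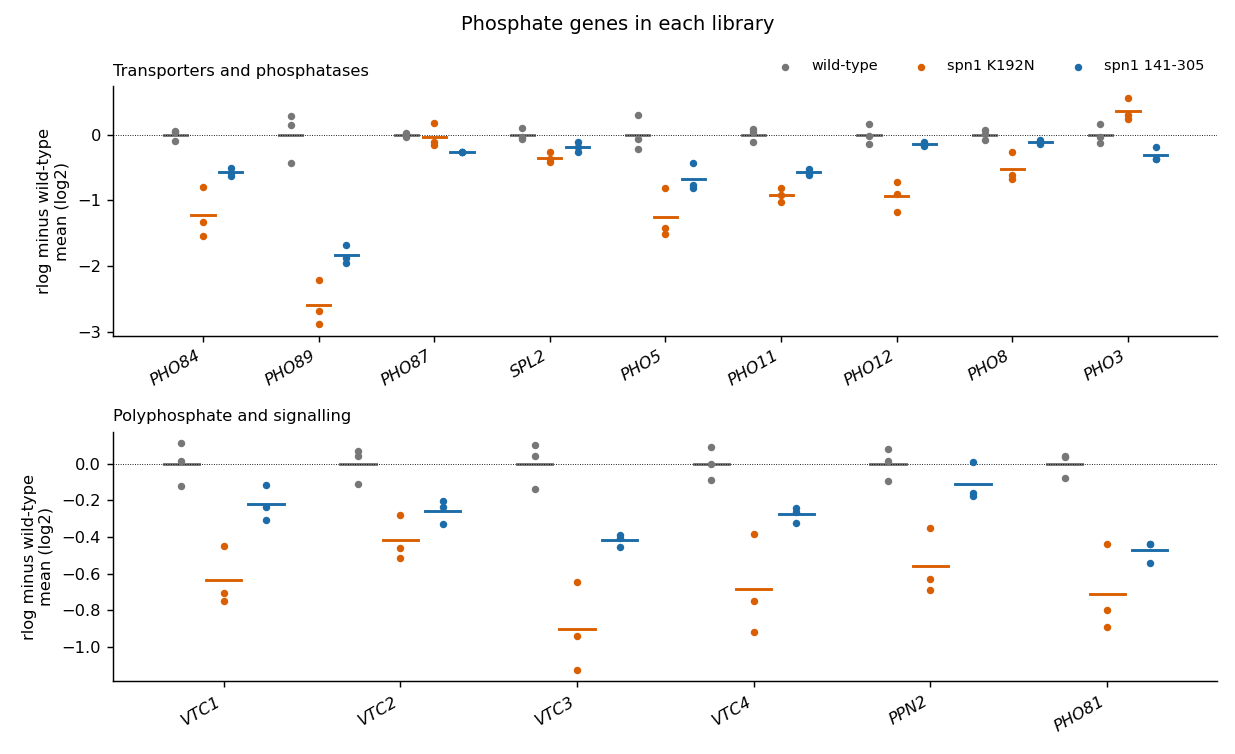
rlog value of each phosphate gene minus its wild-type mean (log2, vertical axis) in 3 wild-type (grey), 3 spn1 K192N (orange) and 3 spn1 141-305 (blue) libraries, with points for libraries and bars for means. For PHO84, PHO89, PHO12, VTC1, VTC3 and VTC4 the orange points lie below the blue ones, and PHO3 and PHO87 have the reverse order of means.

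Genes switched on in new daughter cells were also among those higher in 141-305. After mitosis a set of genes is switched on at the border of M and G1, many of them by the factor Swi5, among them the enzymes that digest the septum between mother and daughter. Of 26 such genes 7 were higher and 1 lower as deposited, beside 0.621% and 1.28% of all tested genes. Libraries did not overlap for 13 higher and 4 lower members, beside 4.55% and 12% of all tested genes. The list median was 0.14, beside −0.02 over all tested genes. After centring 9 were higher and 2 lower, and 4 higher with a robust prior, where *PIR1* (limma adjusted p = 0.12) and *CTS1* (0.14) were lost. Leaving out 1 library at a time gave 2 to 8 higher genes, 2 without 141-305 replicate 2 and 3 without 141-305 replicate 1. After centring the range was 4 to 10, with 4 without 141-305 replicate 1.

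*PIR1*, a cell wall glycoprotein, read 12.69, 12.95 and 13.10 in K192N and 13.52, 13.55 and 13.46 in 141-305, higher by 0.60 (standard error 0.10, limma adjusted p = 0.0017). *CTS1*, the endochitinase that parts the cells, read 14.61, 14.77 and 14.96 against 15.32, 15.34 and 15.28, higher by 0.53 (standard error 0.11, adjusted p = 0.0060). In both genes wild-type was close to 141-305, which differed from it by 0.09 (adjusted p = 0.58) and 0.04 (adjusted p = 0.84), while K192N stood at −0.51 (adjusted p = 0.0035) and −0.50 (adjusted p = 0.0054). The glucanase genes *DSE4* and *SCW11* differed by 0.40 (adjusted p = 0.0075) and 0.30 (adjusted p = 0.11), and the call of *DSE4* was lost without 141-305 replicate 2 (adjusted p = 0.063). The septum genes *EGT2* and *DSE2* rose by 0.40 (adjusted p = 0.018) and 0.36 (adjusted p = 0.033), and *NIS1* and *DSE3*, whose products sit at the bud neck, by 0.30 (adjusted p = 0.018) and 0.24 (adjusted p = 0.049). *CLN3*, the G1 cyclin that sets cell size at Start, was the 1 lower member. It read 12.24, 11.73 and 11.74 in K192N and 11.37, 11.38 and 11.49 in 141-305, a fall of 0.49 (standard error 0.11, adjusted p = 0.0093), with wild-type at 11.89 to 12.27. In the 9 fits that left out 1 library *PIR1*, *CTS1* and *CLN3* kept their calls, while *EGT2* and *NIS1* lost theirs in 2, *DSE2* in 5 and *DSE3* in 6. The highest adjusted p was 0.13 for *EGT2* without 141-305 replicate 2, and 0.11, 0.19 and 0.22 for *NIS1*, *DSE2* and *DSE3* without 141-305 replicate 1.

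The core bound by Swi5, CCAGC on either strand, was found upstream of 19 of the 26 listed genes (73.1%), beside 36.3% of all tested protein-coding genes. For 3 of the risen genes the windows are printed with the core in capitals, as CCAGC or as its complement GCTGG (R64, strand of the gene).
PIR1, chrXI:143236-143256: gagatcggCCAGCttgctctt
DSE4, chrXIV:759369-759389: tatgaaagCCAGCagaaaagg
EGT2, chrXIV:23706-23726: tggttcttGCTGGctctatta
*SWI5*, which encodes this factor, differed by −0.19 (limma adjusted p = 0.22). The 141-305 libraries of *SWI5*, itself a G2/M gene, lay under those of K192N.

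Genes of the *CLB2* cluster, which peak in G2 and M under Mcm1 with a forkhead factor, lay lower in 141-305. All 26 had a difference below 0, beside 63.4% of all tested genes, with a list median of −0.19. *CLB2* was the 1 gene called as deposited, beside 1.28% of all tested genes called lower. Libraries did not overlap for 12 members, all of them lower, beside 12% of all tested genes on the lower side. An unadjusted p below 0.05 was found for 16 members, all of them lower. After centring 6 were called lower, 25 of 26 lay below 0 and the list median was −0.16. *CLB2*, the main mitotic cyclin, read 11.33, 11.03 and 10.87 in K192N and 10.67, 10.71 and 10.68 in 141-305 (−0.40, standard error 0.09, limma adjusted p = 0.018). If wild-type replicate 1 or 141-305 replicate 1 was left out, the call was lost (adjusted p = 0.054 and 0.059) and the list had 0 calls. Called only after centring were the septum chitin synthase gene *CHS2* (−0.33, adjusted p = 0.015), the cytokinesis scaffold gene *IQG1* (−0.26, adjusted p = 0.020) and the polo kinase gene *CDC5* (−0.24, adjusted p = 0.019). Without K192N replicate 3 the list had 9 calls as deposited. Without K192N replicate 1 it had 1 call, and its median was −0.10. After centring the list had 10 calls without K192N replicate 3, and 1, 2 and 3 calls without 141-305 replicate 1, 2 and 3. K192N was near wild-type for *CLB2* (0.02, adjusted p = 0.90), and 141-305 was 0.37 below it (adjusted p = 0.0074). In a bulk culture, fewer cells of a cycle phase and less RNA per cell cannot be told apart. The forkhead core GTAAACA was found upstream of 14 of the 26 genes (53.8%), beside 10.6% of all. Genes of G1/S and DNA replication gave 0 calls of 41 in either limma fit, with a list median of −0.03 and with 0 genes as deposited and 4 after centring at an unadjusted p below 0.05. Over all tested genes 749 of 5954 passed that unadjusted level as deposited and 989 after centring.

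Genes induced by weak acids and genes of the cell surface were among those lower in 141-305. The factor Haa1 answers weak organic acids by inducing membrane proteins and acid exporters. Of 17 Haa1 genes 4 were lower and 0 higher as deposited, beside 1.28% and 0.621% of all tested genes. A difference below 0 was found for 15, beside 63.4% of all tested genes, and the list median was −0.09. *YGP1*, a secreted glycoprotein, read 14.85, 14.20 and 14.14 in K192N and 13.40, 13.42 and 13.63 in 141-305. It fell by 0.91 (standard error 0.13, limma adjusted p = 0.00016). *YRO2*, a membrane protein related to a heat shock protein, read 11.71, 11.44 and 11.26 against 10.61, 10.62 and 10.80, a fall of 0.79 (standard error 0.09, adjusted p = 7.6e-06). Wild-type was at 13.13 to 13.62 and 10.65 to 10.88 in these genes. It was thus close to 141-305, and K192N stood above it by 1.02 (adjusted p = 8.6e-06) and 0.73 (adjusted p = 5.4e-06).

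*TPO3*, a polyamine exporter, had another order. It read 13.11, 12.65 and 12.68 in K192N, 12.20, 12.24 and 12.38 in 141-305 and 12.66 to 13.02 in wild-type. It fell by 0.54 between the mutants (standard error 0.10, limma adjusted p = 0.0043), with K192N at the wild-type level (−0.01, adjusted p = 0.95). Its close relative *TPO2* differed by −0.29 (adjusted p = 0.089) and was called after centring (−0.26, adjusted p = 0.022). *TDA6*, the next reading frame to *TPO3* on chromosome XVI, fell by 0.41 (adjusted p = 0.00031). *YPC1*, a ceramidase, was the remaining Haa1 gene called, at −0.21 (adjusted p = 0.017), with the call lost without K192N replicate 2 (adjusted p = 0.063) or 141-305 replicate 2 (0.18).

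Cell wall genes gave 10 lower and 1 higher call among 45 tested, beside 1.28% and 0.621% of all tested genes. Of the 45, 37 lay below 0, beside 63.4% of all tested genes, and the list median was −0.12. The count of lower genes was 2 without 141-305 replicate 2, 4 without 141-305 replicate 1 and 8 to 12 in the other fits that left out a library. Without K192N replicate 1 it was 10, and the list median was −0.03, beside 0.01 over all tested genes. After centring 14 were lower and 3 higher, and 9 lower with a robust prior and without 141-305 replicate 1 or 2. *SED1*, an abundant wall protein, read 16.85, 16.31 and 16.25 in K192N and 15.96, 15.91 and 16.11 in 141-305 (−0.48, limma adjusted p = 0.031). *TIP1*, a cold-induced mannoprotein, read 15.30, 14.83 and 14.89 against 14.50, 14.40 and 14.73 (−0.47, adjusted p = 0.029). Both calls were lost without wild-type replicate 1 or 141-305 replicate 1 or 2, at an adjusted p of up to 0.16 for *SED1* and 0.20 for *TIP1*. *PIR3*, which belongs to 1 family with *PIR1*, read 8.85, 8.40 and 8.24 against 8.20, 8.01 and 7.94 (−0.45, adjusted p = 0.0079). *PIR1* and *PIR3* thus moved in opposite directions. *CWP1*, a mannoprotein of the birth scar, fell by 0.32 (adjusted p = 0.0093) and *TIR4*, a wall protein of anaerobic cells, by 0.36 (adjusted p = 0.0083). The flocculin genes *FLO5*, *FLO10* and *FLO11* fell by 0.29, 0.31 and 0.30 (adjusted p = 0.012, 0.011 and 0.0093), and reads of FLO genes can be shared through their repeats. *SKN1*, a glucan synthesis gene, and *RLM1*, the transcription factor of the cell wall integrity pathway, fell by 0.36 and 0.26 (adjusted p = 0.016 and 0.029). *PIR3* kept its call in all 9 fits that left out 1 library. Without 141-305 replicate 2 the calls of *TIR4*, *CWP1*, *FLO5*, *FLO11*, *SKN1* and *RLM1* were lost as well (adjusted p = 0.061, 0.10, 0.099, 0.054, 0.079 and 0.20). Without 141-305 replicate 1 those of *FLO5*, *FLO10*, *SKN1* and *RLM1* were lost (adjusted p = 0.052, 0.056, 0.081 and 0.090), and *RLM1* was also lost without 141-305 replicate 3 (adjusted p = 0.10). Relative to wild-type, 141-305 was lower in *TIR4*, *FLO5*, *FLO10* and *FLO11* by 0.53, 0.53, 0.34 and 0.38, and in *CWP1* it differed by −0.01 while K192N was higher by 0.31.

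**Figure D3:**
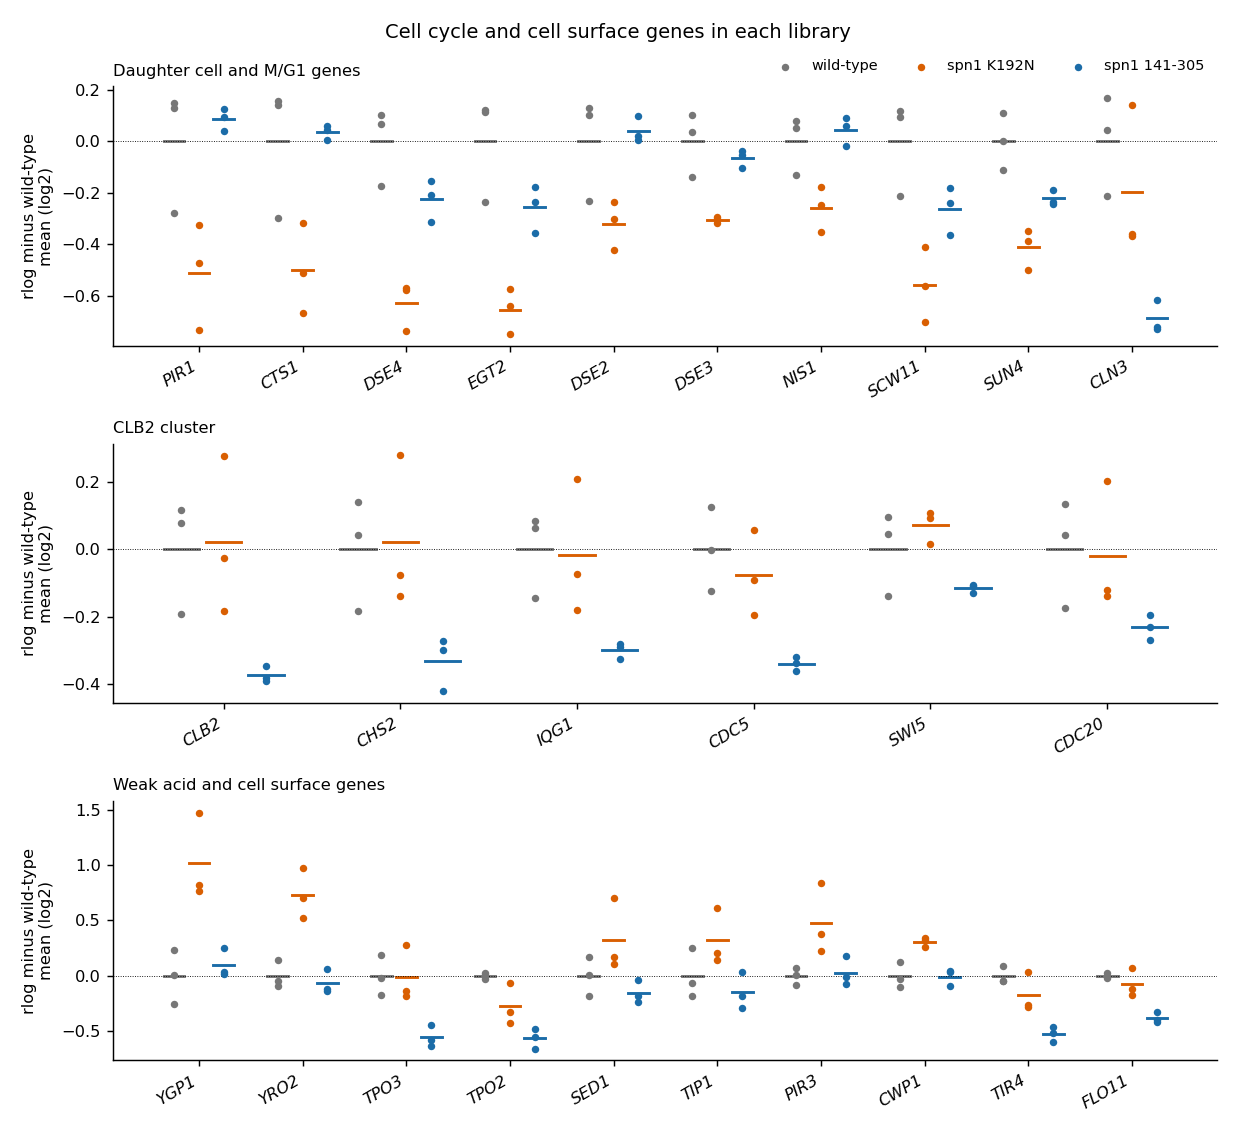
rlog value minus the wild-type mean of each gene (log2, vertical axis) for daughter cell genes (top), CLB2 cluster genes (middle) and weak acid and cell surface genes (bottom), in 3 libraries each of wild-type (grey), spn1 K192N (orange) and spn1 141-305 (blue), with bars for means. In the top row the orange points lie below the blue ones except for CLN3, and in the other rows the blue means lie below the orange ones.

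Iron uptake genes were among the rises. The reductive pathway pairs the multicopper oxidase Fet3 with the permease Ftr1, and Sit1 takes up iron bound to siderophores. Of 28 genes of the regulon 3 were higher and 0 lower, with a list median of 0.04. The median was 0.08 without K192N replicate 1 and 0.01 without K192N replicate 3. Among all tested genes 0.621% were called higher and 1.28% lower as deposited. *FET3* read 12.87, 12.78 and 12.20 in K192N and 13.09, 13.08 and 13.20 in 141-305 (0.50, standard error 0.12, limma adjusted p = 0.016). *FTR1* differed by 0.41 (adjusted p = 0.025) and *SIT1* by 0.44 (adjusted p = 0.0093). K192N replicate 3 was the lowest library in each, and without it the differences were 0.30, 0.23 and 0.30 and the calls were lost (adjusted p = 0.095, 0.14 and 0.051). *FTR1* was also lost without wild-type replicate 1 (adjusted p = 0.073) and 141-305 replicate 2 or 3 (0.074 and 0.065). With a robust prior all 3 calls were lost both as deposited (adjusted p = 0.22, 0.085 and 0.11) and after centring (0.15, 0.12 and 0.083). Relative to wild-type, 141-305 differed by 0.07 in *FET3*, −0.08 in *FTR1* and 0.05 in *SIT1*. *CCC1*, which moves iron into the vacuole, differed by −0.22 (adjusted p = 0.13) and was called lower after centring.

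Amino acid genes moved in both directions. *AGP1*, a broad amino acid permease, read 11.70, 11.65 and 11.66 in K192N, 12.19, 12.21 and 12.10 in 141-305 and 11.55, 11.27 and 11.47 in wild-type. It was higher in 141-305 by 0.49 than in K192N (standard error 0.08, limma adjusted p = 0.00053) and by 0.74 than in wild-type (adjusted p = 4.9e-07). *CHA1*, the serine and threonine deaminase that serine induces, read 11.72, 12.14 and 12.03 against 11.28, 11.16 and 11.20, a fall of 0.75 (standard error 0.09, adjusted p = 8.6e-06). Wild-type *CHA1* lay between, at 11.44 to 11.67. *GCV1*, *GCV2* and *GCV3*, subunits of the glycine cleavage complex, were called higher after centring (0.24, 0.33 and 0.23, adjusted p = 0.0092, 0.0017 and 0.038) and not as deposited. Their list of 16 serine, threonine and glycine genes had 1 to 3 higher calls after centring when 1 library was left out. The permease genes *TAT2* and *SAM3* differed by −0.30 and 0.24 and were called after centring, and *MUP3* by −0.18 (adjusted p = 0.029). The call of *MUP3* was lost after centring, without K192N replicate 2 (adjusted p = 0.11) and without 141-305 replicate 1, 2 or 3 (0.063, 0.20 and 0.076).

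Of 60 biosynthesis genes under the activator Gcn4, 3 were higher and 1 lower as deposited and 7 and 2 after centring, with list medians of −2.6e-05 and 0.02. As deposited there were 9 higher genes and a median of 0.08 without K192N replicate 1. There was 1 higher gene without K192N replicate 2 or 3 or any of the 141-305 replicates. Among all tested genes 0.621% were higher and 1.28% lower as deposited, and 1.86% and 2.38% after centring. *LYS1*, the last enzyme of lysine synthesis, read 9.47, 9.66 and 9.67 in K192N and 9.96, 10.00 and 9.98 in 141-305 (0.38, standard error 0.07, limma adjusted p = 0.0036). *HIS4* of histidine synthesis rose by 0.31 (adjusted p = 0.042), and the call was lost in 6 of the 9 fits that left out a library. *GLT1*, the glutamate synthase, fell by 0.37 (adjusted p = 0.016), and without 141-305 replicate 1 or 3 its adjusted p was 0.070 and 0.10. *PCL5*, the cyclin that marks Gcn4 for destruction, rose by 0.35 (adjusted p = 0.0049). Relative to wild-type it differed by 0.00 in 141-305 (adjusted p = 0.98) and by −0.34 in K192N (adjusted p = 0.0028).

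A few genes of hexose transport, fatty acid synthesis and respiration were called lower, beside 1.28% of all tested genes as deposited. *HXT4*, a hexose transporter of intermediate affinity, read 11.81, 11.27 and 11.27 in K192N and 10.83, 10.72 and 10.91 in 141-305 (−0.63, standard error 0.10, limma adjusted p = 0.00077). Of 22 hexose transport and sensing genes 2 were lower, *HXT4* and the near-copy family member *HXT15* (−0.26, adjusted p = 0.012, and 0.078 without 141-305 replicate 2). *ACC1*, the acetyl-CoA carboxylase that opens fatty acid synthesis, read 15.08, 14.45 and 14.41 against 14.11, 14.12 and 14.11 (−0.53, standard error 0.12, adjusted p = 0.017, and 0.064 without wild-type replicate 1). The synthase gene *FAS1* differed by −0.37 (adjusted p = 0.10) and was called after centring (−0.35, adjusted p = 0.032). The elongase gene *ELO1* fell by 0.45 (adjusted p = 0.019), with the call lost without wild-type replicate 1 (adjusted p = 0.064) and 141-305 replicate 1 or 2 (0.088 and 0.10). *NDE1*, the external NADH dehydrogenase of mitochondria, and *HAP4*, the activator of respiratory genes, fell by 0.40 (adjusted p = 0.0093) and 0.26 (adjusted p = 0.029). They were the 2 called of 44 respiratory chain genes, and their calls were lost in 1 and 4 of the fits that left out a library. Of the 44, 24 lay below 0, with a list median of −0.01, beside 63.4% and −0.02 over all tested genes. Glycolysis and fermentation gave 0 calls of 22 as deposited, with 3 at an unadjusted p below 0.05. Of the 22, 20 lay below 0, beside 63.4% of all tested genes, and the median was −0.11. After centring 2 were lower, beside 2.38% of all tested genes, *PDC1* (−0.35, adjusted p = 0.0084) and *PFK2* (−0.21, adjusted p = 0.036). Without K192N replicate 1 the glycolysis median was −0.02 and 13 of 22 genes lay below 0. After centring the glycolysis list had 0 lower calls without 141-305 replicate 1 and 3 without K192N replicate 2.

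*HEM13*, an oxygen-dependent enzyme of heme synthesis, and *ROX1*, which encodes the repressor of hypoxic genes, *HEM13* among them, moved in opposite directions. *HEM13* read 14.76, 14.27 and 14.19 in K192N and 13.92, 13.83 and 14.13 in 141-305 (−0.45, limma adjusted p = 0.040). *ROX1* read 9.14, 9.10 and 8.86 against 9.32, 9.24 and 9.33 (0.26, adjusted p = 0.042). *HEM13* lost its call in 4 and *ROX1* in 6 of the 9 fits that left out a library.

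Single copies of duplicated genes were also among the largest falls. *RPS14B*, the minor gene for a protein of the small ribosomal subunit, read 11.76, 11.60 and 11.77 in K192N, 11.00, 11.03 and 11.09 in 141-305 and 11.33 to 11.43 in wild-type. It fell by 0.67 (standard error 0.07, limma adjusted p = 6.6e-06), while its major copy *RPS14A* differed by 0.06 (adjusted p = 0.90). *RPL18B*, which encodes a protein of the large subunit, fell by 0.38 (adjusted p = 0.0046, and 0.054 without 141-305 replicate 2). These 2 were the only calls among 135 ribosomal protein genes, whose list median was −0.02. Reads of such pairs can be split between the copies by the counting.

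*ENA2*, a sodium pump gene of a tandem array, read 11.69, 11.49 and 11.37 against 11.12, 11.15 and 10.77 (−0.50, standard error 0.09, limma adjusted p = 0.0034). Its neighbours *ENA1* and *ENA5* differed between the mutants by −0.09 and −0.18 and were not called. *ENA5* stood at 8.15 to 8.16 in wild-type and at 11.00 to 11.39 in both mutants. The near-identical copies share reads, and the part of this in the values was not tested. *YRF1-1* and *YRF1-6*, helicase genes of the subtelomeric repeats, fell by 0.52 (adjusted p = 0.0052) and 0.45 (adjusted p = 0.0043), and *YHR054C*, a reading frame of the *CUP1* repeat, by 0.54 (adjusted p = 0.00016). Copies of both repeats share reads.

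Outside the lists, *PHD1*, a transcription factor of filamentous growth, read 9.35, 9.42 and 9.39 in K192N, 9.87, 9.90 and 9.78 in 141-305 and 9.81 to 10.10 in wild-type (0.46, standard error 0.07, limma adjusted p = 0.00045). *NCW2*, a cell wall protein gene, rose by 0.45 (adjusted p = 0.0033). Both were lower in K192N than in wild-type, by 0.58 each. *BNA4*, an enzyme of NAD synthesis, fell by 0.40 (adjusted p = 0.00053), and *NTE1*, a phospholipase that deacylates phosphatidylcholine, by 0.41 (adjusted p = 0.0049).

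Several gene groups had small differences with few or no calls as deposited. Of 33 proteasome genes 32 lay above 0, with a list median of 0.09, beside −0.02 over all tested genes. As deposited 0 were called and 5 had an unadjusted p below 0.05, and *PRE1*, *PRE3*, *PRE4*, *PRE8* and *RPN6* were called higher after centring, *PRE1* by 0.24 (limma adjusted p = 0.026). Without K192N replicate 1 the proteasome had 4 higher calls as deposited and 8 after centring. After centring it had 0 calls without K192N replicate 3 or 141-305 replicate 1, 1 without 141-305 replicate 3 and 2 without 141-305 replicate 2. Of 11 histone genes 10 lay above 0, with a median of 0.15, and *HTA1* and *HHF2*, which encode H2A and H4, were called higher after centring (0.24 and 0.18, adjusted p = 0.029 and 0.037). Histone calls after centring numbered 7 without K192N replicate 3 and 0 without K192N replicate 1 or 2 or 141-305 replicate 1 or 3. Mitochondrial ribosomal protein genes gave 0 calls of 79 in either fit, with 6 at an unadjusted p below 0.05 as deposited, 58 above 0 and a median of 0.05. In the other direction, 37 of 44 nuclear pore and karyopherin genes lay below 0 (median −0.05), beside 63.4% of all tested genes. Without K192N replicate 1 it was 25 of 44, with a median of −0.02. *KAP122*, *KAP120* and *MLP1* were called lower after centring (−0.25, −0.23 and −0.19, adjusted p = 0.010, 0.031 and 0.022), and after centring the list had 1 call without 141-305 replicate 1 and 0 without 141-305 replicate 3. Of 23 genes for subunits of RNA polymerases I and III 16 lay below 0 (median −0.05), beside 63.4% of all tested genes. *RPO31* and *RRN3* were called lower after centring (−0.16 and −0.19, adjusted p = 0.039 and 0.031). In the fits that left out 1 library, this list had 0 or 1 lower calls after centring.

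Stress genes gave few calls. Of 44 genes of the general stress response 1 was higher, the polyubiquitin gene *UBI4* (0.32, limma adjusted p = 0.0092), and 1 lower, the repressor gene *XBP1* (−0.26, adjusted p = 0.016), with a list median of 0.00. *UBI4* lost its call without 141-305 replicate 1 or 2 (adjusted p = 0.059 and 0.079), and *XBP1* without 141-305 replicate 2 (adjusted p = 0.16). Genes near Spn1 in function gave 0 calls in both fits, among 41 genes for elongation factors and histone chaperones, 58 for remodelers and coactivators and 12 for RNA polymerase II subunits. At an unadjusted p below 0.05 as deposited there were 2, 8 and 0, and the list medians were −0.05, −0.05 and −0.01. The members farthest from 0 were *SPT6*, which encodes the Spn1 partner (−0.16, adjusted p = 0.43), *SEN1* (−0.15), *TAF2* (−0.19), *SRB8* (−0.18), *RPB9* (0.08) and *RPB7* (−0.08). Small subunit processome, large subunit assembly, translation factor, zinc and vacuolar sorting genes also had 0 calls in both fits, with 0 to 2 genes of each at an unadjusted p below 0.05 as deposited. Their medians ran from −0.09 for zinc to −0.02 for vacuolar sorting, with *NOP9* (−0.16), *RIX1* (−0.14), *CDC60* (−0.15), *IZH1* (−0.26) and *VAM6* (−0.18) farthest from 0.

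**Figure D4:**
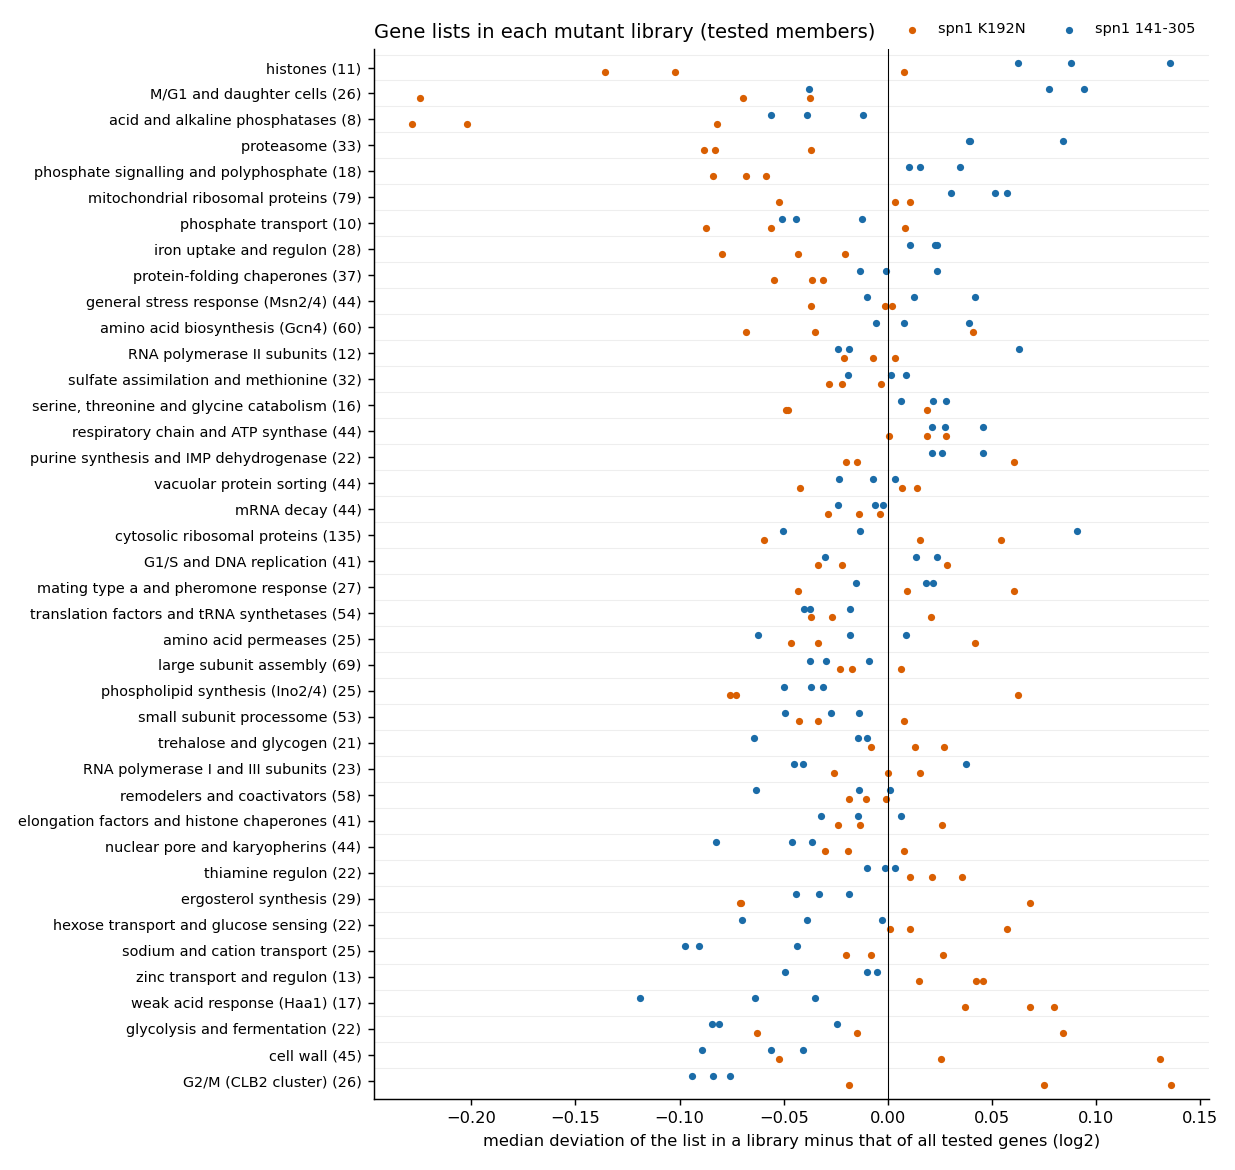
Median deviation of each gene list from its mean over 9 libraries, minus that of all tested genes in the same library (log2, horizontal axis), for 3 spn1 K192N (orange) and 3 spn1 141-305 (blue) libraries, with tested members in brackets and lists ordered by the difference as deposited. Histones (median difference 0.15) and daughter cell genes (0.14) stand at the top and the CLB2 cluster (−0.19) at the bottom.

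Against wild-type itself, limma called 286 lower and 24 higher genes in K192N (4.8% and 0.403% of tested genes) and 1120 lower and 27 higher genes in 141-305 (18.8% and 0.453%). The genes called between the mutants had different positions relative to wild-type by direction. The 76 lower genes had a median difference from wild-type of 0.02 in K192N and −0.32 in 141-305, and wild-type was nearer K192N for 59 of them. It lay between the mutants for 39, above both for 35 and below both for 2. The 37 higher genes had medians of −0.39 in K192N and 0.00 in 141-305, and wild-type was nearer 141-305 for 28. It lay between the mutants for 17, above both for 18 and below both for 2. Both differences share the wild-type libraries, so they are given side by side with no test of their likeness. After centring, wild-type was nearer K192N for 105 of 142 lower genes and nearer 141-305 for 62 of 111 higher genes.

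The median difference between the mutants was lower in longer genes. By quartile of coding length, the median difference was 0.00 for 153 to 753 bases, −0.02 for 753 to 1245, −0.03 for 1245 to 1908 and −0.06 for 1911 to 14733. As deposited the quartiles held 6, 19, 24 and 26 lower calls and 4, 11, 13 and 7 higher calls. After centring they held 8, 32, 36 and 66 lower and 30, 31, 32 and 13 higher calls. The median coding length was 1650 bases for lower genes and 1383 for higher genes as deposited, and 1857 and 1125 after centring, beside 1245 for all tested protein-coding genes. The slope of gene deviation on log2 coding length was 0.015, −0.00075 and −0.020 in the K192N libraries and −0.023, −0.0084 and −0.056 in those of 141-305, so that the groups overlapped. The difference of slopes was −0.027 (exact permutation test, two-sided, p = 0.2). In wild-type the slopes were 0.039, 0.025 and 0.029, above all 6 mutant libraries. The quartiles of mean rlog ran from −0.01 to −0.03 in median difference, and calls as deposited rose with level in both directions, from 12 to 30 lower and from 4 to 18 higher.

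**Figure D5:**
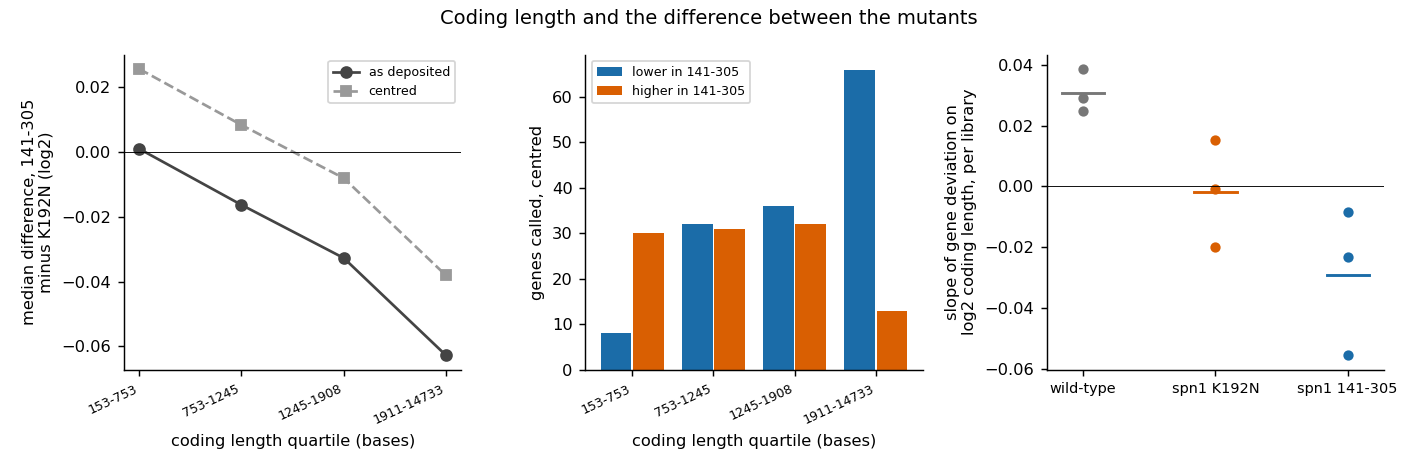
Left, median difference between the mutants (log2) by quartile of coding length in bases, as deposited and centred, falling from 0.00 to −0.06 as deposited; middle, genes called after centring in each quartile, with 66 lower and 13 higher among the longest; right, slope of gene deviation on log2 coding length in each of 3 libraries per genotype, with bars for means. Slopes of the K192N and 141-305 libraries overlap.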

How the data were processed

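Poly-A RNA of 9 cultures, 3 per genotype, was sequenced. Per the paper, the authors used Salmon 1.9 to quantify reads on the cDNA of *S. cerevisiae* and *S. pombe*, each genome serving as decoy. The authors then estimated size factors from the *S. pombe* genes with DESeq2 1.30.1 and deposited rlog values, which are on a log2 scale and hold no counts. Their 3 tables of fold changes and p-values were not used. Libraries were grouped by their labels.

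Differences were fitted with limma 3.58.1 (R 4.3.3) on the 9 libraries, with 1 mean per genotype, eBayes with trend, and Benjamini-Hochberg correction of two-sided p-values over the 5954 genes whose mean reached log2(10). A gene was called at an adjusted p below 0.05. The centred fit first subtracted from each library its median gene deviation. Values per library were compared by exact permutation tests. R64 supplied positions for 5912 genes. P-values measure the spread between cultures of 1 strain per genotype. The fits were tested on simulated data. Python 3.11.15 was used for the other steps.

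The comparison and the 41 gene lists were chosen with earlier results of these data known. Named genes were *SPN1* and strain markers, the 12 largest falls and 12 largest rises called without overlap (5 and 5 after centring), and up to 4 called genes per list, or the 2 largest where none was called. Of the latter some are given by range, and a list of small nuclear RNAs had no member. Other named genes were chosen after their values were seen, and some genes the rule names are not reported here. Alternatives covered the filter, the prior variance, the libraries, the replicate number, the threshold and the centring.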

Additional observations from a re-analysis of the deposited data

How the results depend on the processing

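A prior variance that did not follow the level gave 13 lower and 6 higher genes as deposited, against 76 and 37 with the trend, of which 12 and 6 were shared. After centring it gave 144 and 110. At an adjusted p below 0.01 there were 32 lower and 22 higher genes as deposited, and 55 and 33 after centring. With only the 6 mutant libraries in the fit, 54 lower and 29 higher genes were called as deposited, and 94 and 73 after centring. Leaving out 1 library at a time gave 38 to 146 lower and 25 to 116 higher genes as deposited, and 75 to 139 lower and 55 to 143 higher genes after centring. The extremes as deposited were the fits without 141-305 replicate 1 and without K192N replicate 3 for lower genes, and without 141-305 replicate 1 or 2 and without K192N replicate 1 for higher genes. The level difference between the mutants ran from −0.047 to 0.013 in the fits without 1 library and changed sign without K192N replicate 1. The length slope ran from −0.038 to −0.014 and the share of variance from 30.2% to 48.0%. The causes were not tested.

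No other filter, robust prior or centring moved the number of lower or higher genes over all tested genes by over 1.5 times. The robust prior changed which genes were called, with 63 of the 76 lower and 31 of the 37 higher genes kept as deposited and 121 of 142 and 92 of 111 after centring, and it ended the calls of the iron genes. Of the 47 named genes called as deposited, 9 kept their call under all 16 alternatives, none changed sign, and the alternatives lost 143 of 752 calls in all. Deviations of same-numbered libraries of the mutants had correlations of −0.20, 0.12 and 0.03, within the −0.27 to 0.23 of differently numbered ones. Samples were therefore not paired by number in the main fits. Wild-type was not in this check, and 3 such values cannot show that the numbers carry no batch. With the replicate number as a block, 101 lower and 45 higher genes were called as deposited and 135 and 102 after centring. Read depth is unknown, so no limit of detection is given.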

Other observations

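Some genes were called between the mutants and belong to no list. *MSA1*, an activator partner of the G1 factors SBF and MBF, fell by 0.36 in *spn1* 141-305 (limma adjusted p = 0.0075), and *MAL33*, an activator of maltose genes, by 0.35 (adjusted p = 0.0025). *CIT2*, the peroxisomal citrate synthase, rose by 0.30 (adjusted p = 0.045), and the call was lost in 4 of 9 fits that left out a library. These genes were chosen after their values were seen.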
